A study of Mus musculus with 7 samples.

Results

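The surroundings of Cyp24a1 were described from vitamin D receptor (VDR) peaks whose centre lay within 100 kb of the gene body on mouse build mm9, in each of 6 peak lists. The window took in 48 of 169691 peaks, which merged into 20 of 87029 regions when peaks overlapping by at least 1 bp were joined. Cyp24a1 (ENSMUSG00000038567.5) runs on the minus strand of chromosome 2, chr2:170308208-170322645, with 12 annotated exons. Distances below are from its annotated start at 170322645, with negative values upstream, and each region is called by that distance.

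Chromatin immunoprecipitation and sequencing (ChIP-seq) with an antibody against VDR was done on epithelial cells shed with EDTA from the duodenum and jejunum. The animals were wildtype mice aged 8 weeks on standard chow, given vehicle (3 libraries) or the active vitamin D hormone 1,25(OH)2D3 at a dose of 10 ng for each g of body weight (3 libraries), and tissue was taken after 1 h. The remaining sample of the 7 is an input, labelled with the hormone dose, which has no peak list here. The headers of all 6 lists name the same input, so the vehicle lists had no input labelled as vehicle. The labels do not tie each library to its own mouse, so p values measure the spread between these libraries, which may be technical. No expression or histone values were analysed here, so epithelial markers could not be checked, and whether a downstream region acts as an enhancer was not measured.

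Cyp24a1 encodes the mitochondrial 24-hydroxylase that inactivates 1,25(OH)2D3 and its precursor, and it is among the most strongly induced target genes of the hormone in many tissues. VDR binds as a heterodimer with a retinoid X receptor to vitamin D response elements, most often a direct repeat of hexamers with a 3 bp spacer (DR3). The Cyp24a1 promoter is a textbook example of DR3 elements close to a start site, and VDR binding downstream of the gene has also been described in other cells.

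The sequences of the promoter region and of the 4 downstream regions that stood highest in the 1,25(OH)2D3 peak lists are printed because the comparisons below turn on them. All are read on the minus strand of mm9, the strand of Cyp24a1, 5′ to 3′, with DR3 matches in capitals. The promoter stretch, chr2:170322746-170323045, covers -400 to -101 bp, and its capitals mark matches with at most 2 mismatches. The other 4 stretches span 201 bp around the region centre, chr2:170287208-170287408 (35.3 kb), chr2:170285448-170285648 (37.1 kb), chr2:170283160-170283360 (39.4 kb) and chr2:170279748-170279948 (42.8 kb), and their capitals mark matches with at most 1 mismatch. A match on the other strand appears here as its reverse complement.
Promoter: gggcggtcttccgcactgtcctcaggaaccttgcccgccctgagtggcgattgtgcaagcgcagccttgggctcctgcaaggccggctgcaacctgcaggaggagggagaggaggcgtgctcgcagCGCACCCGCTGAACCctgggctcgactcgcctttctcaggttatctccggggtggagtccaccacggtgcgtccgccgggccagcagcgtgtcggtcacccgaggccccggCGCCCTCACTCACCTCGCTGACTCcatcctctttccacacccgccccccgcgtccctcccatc
Region at 35.3 kb: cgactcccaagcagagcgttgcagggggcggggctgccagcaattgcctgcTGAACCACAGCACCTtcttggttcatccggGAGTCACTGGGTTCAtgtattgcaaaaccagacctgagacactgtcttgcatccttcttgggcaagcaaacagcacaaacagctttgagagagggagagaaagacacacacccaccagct
Region at 37.1 kb: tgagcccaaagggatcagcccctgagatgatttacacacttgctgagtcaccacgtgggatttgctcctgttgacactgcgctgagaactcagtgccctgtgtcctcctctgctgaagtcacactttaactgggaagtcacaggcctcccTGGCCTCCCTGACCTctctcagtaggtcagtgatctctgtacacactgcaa
Region at 39.4 kb: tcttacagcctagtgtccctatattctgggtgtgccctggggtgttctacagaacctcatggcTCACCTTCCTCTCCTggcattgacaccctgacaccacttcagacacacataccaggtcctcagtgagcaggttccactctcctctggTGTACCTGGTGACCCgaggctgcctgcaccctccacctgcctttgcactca
Region at 42.8 kb: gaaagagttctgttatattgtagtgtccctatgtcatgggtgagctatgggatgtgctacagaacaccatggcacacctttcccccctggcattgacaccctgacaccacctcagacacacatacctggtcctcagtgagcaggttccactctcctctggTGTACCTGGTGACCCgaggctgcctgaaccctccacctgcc
The last pair of stretches is alike over most of its length, and both hold the same 15-base match, TGTACCTGGTGACCC as printed, which is described below.

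The libraries differed in depth and in list length. Vehicle replicates 1, 2 and 3 held 19733260, 15991198 and 68560701 tags and 8756, 14888 and 48425 peaks. The 1,25(OH)2D3 replicates held 17152461, 17438643 and 66524392 tags and 25510, 30390 and 41722 peaks. Peaks took 2.58, 4.81 and 8.10% of the tags with vehicle and 11.86, 15.89 and 18.96% with 1,25(OH)2D3, so the groups did not overlap in this share. The part of depth and of this share in the results below was not tested.

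Vehicle libraries held 5, 4 and 11 peaks in the Cyp24a1 window, and 1,25(OH)2D3 libraries held 9, 10 and 9. The deep vehicle replicate 3 had the most of all 6, and the other vehicle replicates the fewest. The means were 6.67 ± 3.79 (SD, n = 3) with vehicle and 9.33 ± 0.577 (SD, n = 3) with 1,25(OH)2D3, a difference of 2.67 peaks that did not pass (exact two-sided permutation p = 0.4, where 3 against 3 cannot go below 0.1). With the deep replicate 3 alone in each group the direction turned, to 2 fewer peaks with hormone (9 against 11), and without vehicle replicate 3 the difference was 4.83 (exact permutation p = 0.1). Leaving out vehicle replicate 2 gave a difference of 1.33. With the shallow replicates 1 and 2 alone in each group, the means were 4.5 with vehicle and 9.5 with hormone, a difference of 5.

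Relative to list length, the window held 5.71, 2.69 and 2.27 peaks per 10000 peaks with vehicle and 3.53, 3.29 and 2.16 with 1,25(OH)2D3. The means of 3.56 ± 1.88 and 2.99 ± 0.733 (SD, n = 3 each) differed by -0.564, less than the spread between libraries (exact two-sided permutation p = 0.8). Vehicle replicate 1 was the highest of all 6, and without it the difference was 0.513 in the other direction. When every list was cut to the length of the shortest, 8756 peaks, the difference was 3.81 per 10000 peaks (exact permutation p = 0.1), again with more for hormone.

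The 20 regions fell into a promoter region, 3 regions farther upstream and 16 downstream, with no peak centre inside the gene body beyond 1 kb from the start. Regions found in all 6 libraries numbered 4, or 20% of the window, against 4.99% of all regions. They were the promoter region and those at 35.3, 37.1 and 42.8 kb. Hormone-only regions, found in every 1,25(OH)2D3 list (3 of 3) and none of the vehicle lists, numbered 2 (10%, against 5.39% of all regions), at -11.1 and 20.5 kb. The window held 0 regions found in all 3 vehicle and no hormone library, a class that makes up 0.0299% of all regions. A further 11 regions (55%, against 62.6% of all regions) were found in 1 library only, and 3 had other combinations.

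The scores deposited with the peaks are 1 for every peak, so the place of a peak in its library's list was used to rank it. What orders the lists is not given in the sources used here, and a list rank (1 for the first peak) or percentile (100 for the first) is a position, not a measured occupancy.

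**Figure D1:**
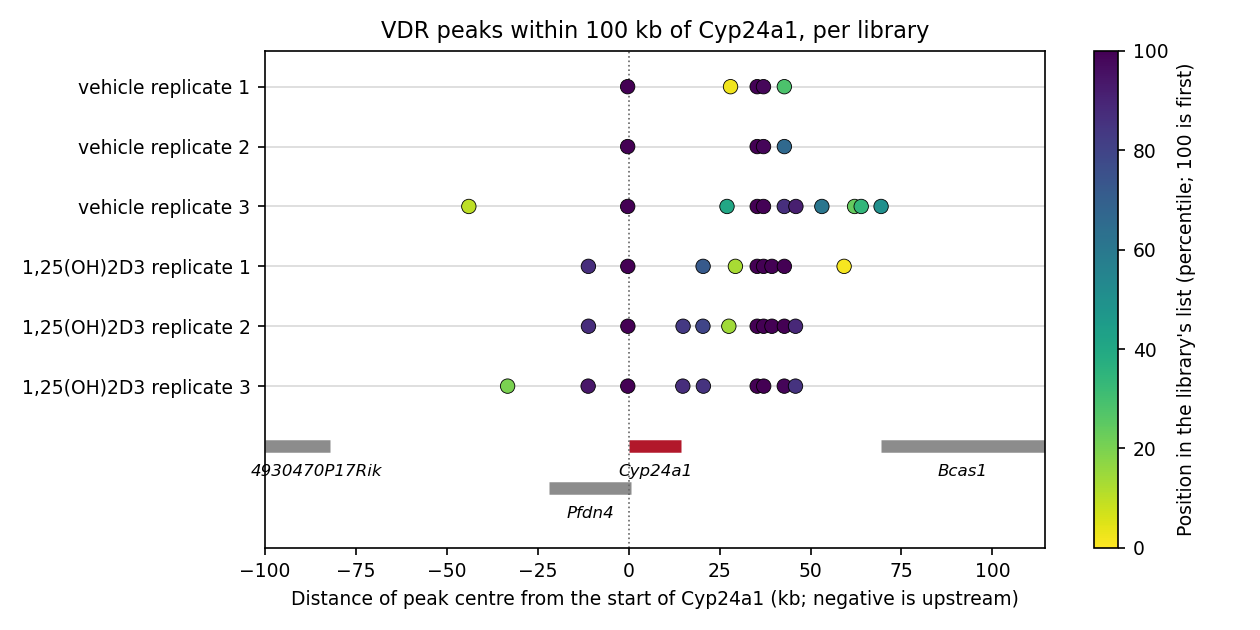
Each point is a VDR peak within 100 kb of Cyp24a1, placed by the distance of its centre from the gene's start in kb (x axis), in a row for each of the 3 vehicle and 3 1,25(OH)2D3 libraries, with protein-coding genes drawn as bars below. Colour gives the peak's position in its library's list as a percentile, and the darkest points stand at the promoter and between 35.3 and 42.8 kb downstream.

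The promoter region, chr2:170322730-170323066, ranked 11, 14 and 13 in the vehicle lists and 6, 6 and 5 in the 1,25(OH)2D3 lists. It was thus within the first 14 peaks of every list, and nearer the top in each hormone list than in any vehicle list. Among peaks within 1 kb of the start of a protein-coding gene, it ranked 5, 5 and 4 with vehicle and 2, 2 and 1 with hormone. The region overlaps the first part of Pfdn4 (chr2:170321928-170344623, plus strand), which encodes a prefoldin subunit, and its centre lies in a Pfdn4 intron. The 201 bp around the centre had a GC content of 69.7% with 19 CpG dinucleotides, against a median GC content of 44.3% over all regions.

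The centre of the promoter peak lay at -294, -283 and -278 bp with vehicle and at -246, -229 and -252 bp with 1,25(OH)2D3. Every hormone centre was closer to the Cyp24a1 start than every vehicle centre. Comparing centres, here and in the regions below, was not among the planned tests. The means of -285 ± 8.19 and -242 ± 11.9 bp (SD, n = 3 each) differed by 42.7 bp (exact two-sided permutation p = 0.1, the smallest possible, and 0.2 after Benjamini-Hochberg adjustment over the 4 regions found in all 6 libraries). Over 4345 such regions in the genome the median absolute shift was 21.7 bp, and 23.9% shifted at least as far. The estimated fragment length, per the file headers, was 254, 260 and 280 bp in the vehicle libraries, below the 284, 288 and 282 bp of the hormone libraries, and its part in the shift was not tested.

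**Figure D2:**
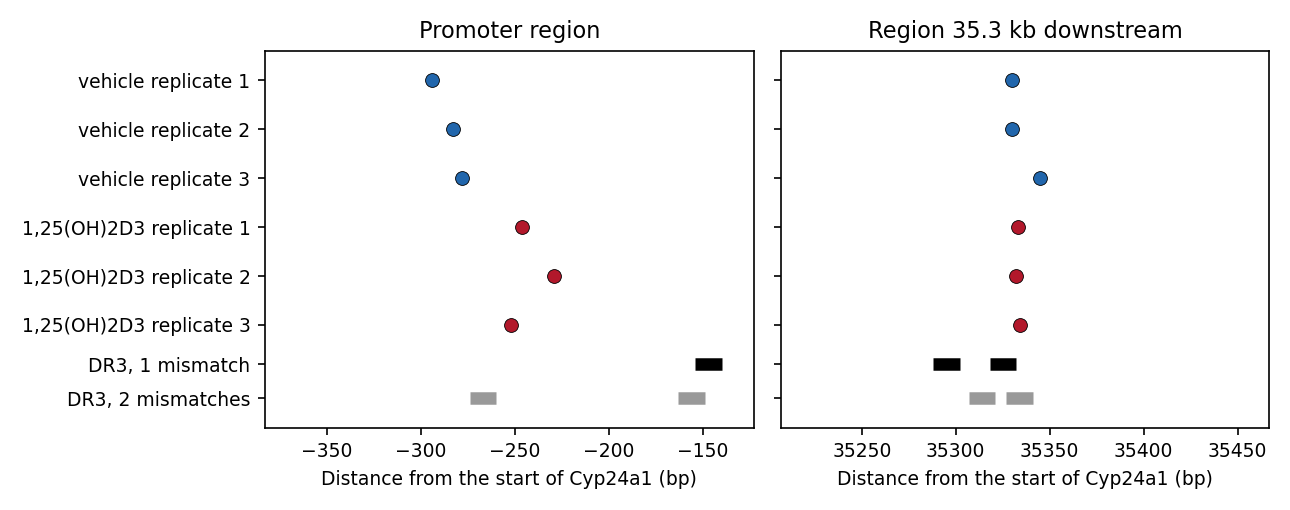
Points are peak centres of the promoter region (left) and of the region at 35.3 kb (right) in the 3 vehicle and 3 1,25(OH)2D3 libraries, by distance from the start of Cyp24a1 in bp (x axes), with bars for DR3 matches of 1 and 2 mismatches. The promoter centres of the groups do not overlap, whereas those at 35.3 kb lie within 15 bp of each other.

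The promoter stretch held 3 DR3 matches on the strand opposite Cyp24a1. GGTTCAGCGGGTGCG spanned -274 to -260 bp with 2 mismatches. AGGTGAGTGAGGGCG (-163 to -149 bp, 2 mismatches) and GAGTCAGCGAGGTGA (-154 to -140 bp, 1 mismatch) overlapped each other, and appear above as a single run of capitals. The vehicle centres lay 27, 16 and 11 bp and the hormone centres 21, 38 and 15 bp from the middle of the upstream match. The hormone centres lay 99, 82 and 105 bp from the middle of the match at -147 bp, against 147, 136 and 131 bp for the vehicle centres, so the shift was toward the pair nearer the start. Windows of -400 to -101 bp held at least 3 matches with at most 2 mismatches in 5.15% of 22367 protein-coding genes, and a match with at most 1 mismatch in 6.17%.

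Downstream, a group of 5 regions between 35.3 and 45.9 kb from the start lay between Cyp24a1 and Bcas1, outside annotated genes. Successive centres were 1760, 2288, 3412 and 3129 bp apart. Of the 4345 regions found in all 6 libraries anywhere in the genome, 83 (1.91%) had at least 2 others within 10 kb, as those at 35.3, 37.1 and 42.8 kb did.

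The region at 35.3 kb, chr2:170287160-170287457, ranked 59, 38 and 33 with vehicle and 7, 5 and 6 with 1,25(OH)2D3. With hormone it stood beside the promoter region in the list. Its vehicle centres lay at 35330, 35330 and 35345 bp, and its hormone centres at 35333, 35332 and 35334 bp, so they overlapped between groups (difference in means -2 bp, exact permutation p = 1). It held a pair of DR3 matches with 1 mismatch, GAGTCACTGGGTTCA on the strand of Cyp24a1 and AGGTGCTGTGGTTCA on the other. The first had its middle 5, 5 and 20 bp from the vehicle centres and 8, 7 and 9 bp from the hormone centres.

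The region at 37.1 kb, chr2:170285380-170285716, ranked 161, 194 and 369 with vehicle and 27, 18 and 44 with 1,25(OH)2D3. Its vehicle centres lay at 37067, 37076 and 37069 bp, and its hormone centres at 37087, 37099 and 37124 bp. They did not overlap between groups (difference 32.7 bp, exact permutation p = 0.1, adjusted p = 0.2). Of all regions found in all 6 libraries, 34.4% shifted at least as far. This region and the promoter made 2 of 4 regions with separate centres, against 12.9% of all regions found in all 6 libraries. The single DR3 match with 1 mismatch, AGGTCAGGGAGGCCA, lay 87, 78 and 85 bp from the vehicle centres and 67, 55 and 30 bp from the hormone centres.

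The region at 42.8 kb, chr2:170279693-170280003, ranked 6265, 5024 and 6603 with vehicle and 97, 91 and 521 with 1,25(OH)2D3. In percentiles this was 28.4, 66.3 and 86.4 with vehicle and 99.6, 99.7 and 98.8 with hormone, and the groups did not overlap. The vehicle percentiles followed the length of the lists (8756, 14888 and 48425 peaks), while the vehicle ranks were close to each other and the hormone ranks less so. The rise of 39 percentile points (60.4 ± 29.4 to 99.4 ± 0.527, SD, n = 3 each) was the largest of the 4 regions, and 1.27% of all regions found in all 6 libraries rose as far (exact permutation p = 0.1). Its DR3 match with 1 mismatch, GGGTCACCAGGTACA, lay on the strand opposite Cyp24a1.

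All 4 regions were nearer the top of the list in every 1,25(OH)2D3 library than in any vehicle library. This held for 11.6% of all regions found in all 6 libraries, and the opposite order for 23.1%. By percentile, which itself moves with the length of a list, all 4 were again higher in every hormone library, against 11.9% of those regions. The size of the rise in percentile set only 1 of the 4 apart, at 42.8 kb, but a percentile cannot exceed 100. Vehicle means already stood at 99.92 for the promoter, 99.67 for 35.3 kb and 98.71 for 37.1 kb, which left little room to rise. The shares for these 3 regions therefore do not show that their change was ordinary. A rise as large was held by 81.1% of all regions found in all 6 libraries for the promoter and 78.9% for 35.3 kb. It was held by 72.7% for 37.1 kb and 1.27% for 42.8 kb. The geometric mean of the vehicle ranks divided by that of the hormone ranks was 2.23 at the promoter, 7.06 at 35.3 kb, 8.14 at 37.1 kb and 35.6 at 42.8 kb, against a median of 0.832 over all regions found in all 6 libraries. A ratio as large was held by 7.25, 0.667, 0.391 and 0.069% of those regions, respectively. Each of the 4 differences gave an exact two-sided permutation p of 0.1, the smallest possible, and an adjusted p of 0.1.

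The mean percentile of the 4 regions was 81.5, 91.2 and 96.4 with vehicle and 99.9, 99.9 and 99.7 with 1,25(OH)2D3. The groups did not overlap, and the means of 89.7 ± 7.57 and 99.8 ± 0.134 (SD, n = 3 each) differed by 10.1 points (exact two-sided permutation p = 0.1). Over the 4345 single regions found in all 6 libraries, the median difference, hormone minus vehicle, was 5.69 points, with a 95th percentile of 29.17. Most of the 10.1 points came from the region at 42.8 kb. Without vehicle replicate 1, where that region was lowest, the difference was 6.04. With the first 0.5 of each list, where 3 regions remained in all 6 libraries, it was 1.05, and with lists of equal length it was 17.1 (exact permutation p = 0.1 for both).

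**Figure D3:**
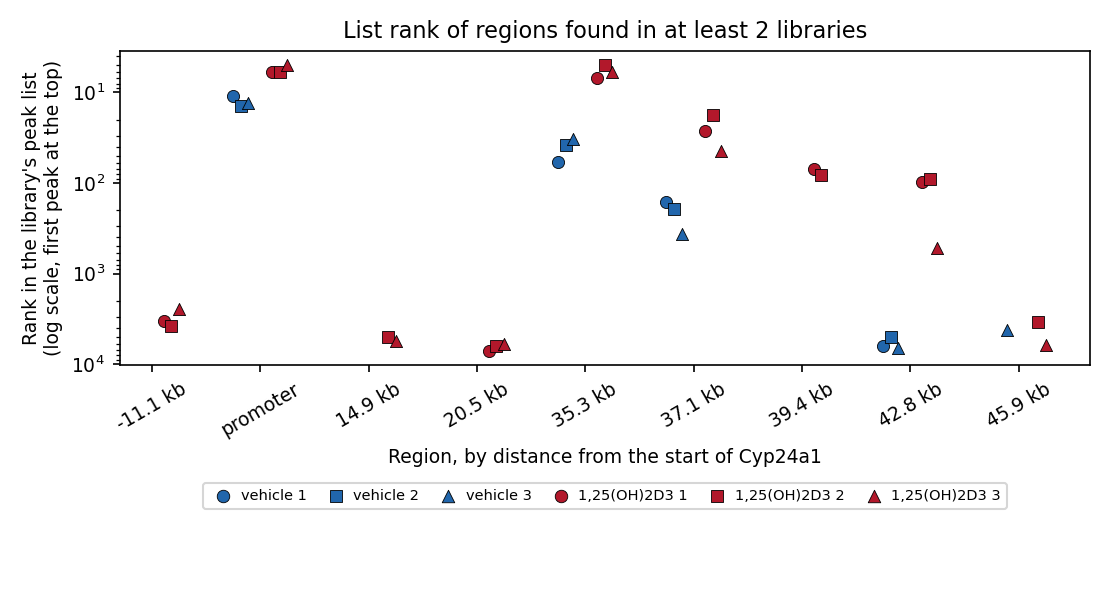
Ranks of the 9 regions found in at least 2 libraries (x axis, by distance from the start of Cyp24a1) in each library's peak list (y axis, log scale, first peak at the top), in blue for vehicle and red for 1,25(OH)2D3, with a marker shape per replicate. In the 4 regions with all 6 points the red points stand above the blue ones, with the widest gap at 42.8 kb.

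The region at 39.4 kb, chr2:170283116-170283404, was found in 1,25(OH)2D3 replicates 1 and 2 at ranks 71 and 81, and not in the deep replicate 3 or in any vehicle library. Its peaks were thus higher in both lists than those at 42.8 kb, at ranks 97 and 91. Of 63 regions at or above percentile 99.73 in both of those replicates, 3 (4.76%) had no peak in replicate 3, and this was the only 1 of them with no peak in any vehicle library either. It held 2 DR3 matches with 1 mismatch, AGGAGAGGAAGGTGA and GGGTCACCAGGTACA, both on the strand opposite Cyp24a1.

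The regions at 39.4 and 42.8 kb lie in copies of one segment. The copies, chr2:170282582-170283413 and chr2:170279161-170279988, were 91.2% identical over 832 alignment columns in the same orientation, with 4 gap columns. The longest identical run was 212 bp and lay 74 bp beyond the region at 42.8 kb, and the longest inside that region was 68 bp. The match GGGTCACCAGGTACA was present in both copies, whereas AGGAGAGGAAGGTGA met the limit of 1 mismatch only in the copy at 39.4 kb. Carried through the alignment, the 42.8 kb centres of 1,25(OH)2D3 replicates 1 and 2 fell 1 bp from their own 39.4 kb centres. How reads that align to more than 1 place were treated is not given in the sources used here, and its part in the peaks of both copies was not tested. None of the other 7 regions found in at least 2 libraries had a match of 200 bp or longer elsewhere in the genome. The region at 14.9 kb had 99 shorter matches, and the rest of the 7 had none.

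**Figure D4:**
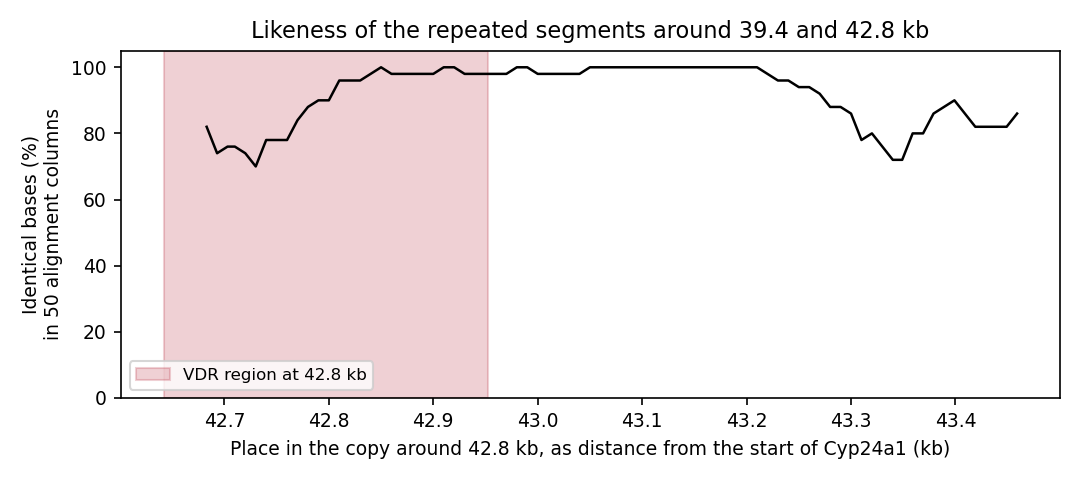
Percentage of identical bases in 50 alignment columns (y axis) between the segments around 39.4 and 42.8 kb, by place in the copy around 42.8 kb as distance from the start of Cyp24a1 in kb (x axis), with the VDR region at 42.8 kb shaded. The longest identical run, 212 bp, lies outside the shaded region, and likeness inside it is lower toward its end nearer the gene.

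The fifth of these downstream regions, at 45.9 kb (chr2:170276523-170276915), was found in the deep vehicle replicate 3 at rank 4161 and in 1,25(OH)2D3 replicates 2 and 3 at ranks 3398 and 6188. It was therefore absent from 3 lists, among them those of the shallow vehicle libraries. Its centre is 23.4 kb from the start of Bcas1, the next gene downstream, and no DR3 match with at most 1 mismatch lay within 100 bp.

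Both hormone-only regions, the class found in all 3 hormone lists, stood lower in those lists than the 4 regions found in all 6 libraries. The regions at 14.9 and 39.4 kb also had no vehicle peak, but were found in only 2 hormone lists each. The region at -11.1 kb, chr2:170333568-170333942, ranked 3366, 3835 and 2470 in the 1,25(OH)2D3 replicates, and lies in introns of Pfdn4 and of the long non-coding RNA gene Gm16796. A DR3 match with 1 mismatch, AGGTGAACAAGTCCA, lay 117 bp from its centre. The region at 20.5 kb, chr2:170301968-170302373, ranked 7153, 6272 and 6057 and lies between genes. At 14.9 kb, chr2:170307550-170307907, a region whose centre is 480 bp past the end of the gene was found in hormone replicates 2 and 3, at ranks 5030 and 5493. A list holds only what passed the peak caller, 8756 peaks in vehicle replicate 1, so a missing peak is not a measured absence of VDR.

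The 11 regions found in a single library stood at percentiles 1.25 to 60.8 (median 20.03), whereas the 37 peaks of regions in at least 2 libraries stood at 28.4 to 99.99 (median 99.3). Vehicle replicate 3 held 6 of the 11. A group of 4 such regions from 27.0 to 29.3 kb, spanning 2314 bp, came from 4 different libraries, vehicle replicates 3 and 1 and hormone replicates 2 and 1.

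Within 100 bp of the region centre, 4 of 20 regions held a DR3 match with at most 1 mismatch, those at 35.3, 37.1, 39.4 and 42.8 kb. Those at 39.4 and 42.8 kb lie in copies of 1 segment and hold the same match, so they are not separate instances in these counts. The share of 20% stood beside 10.9% of all regions and 4.13% of windows 5 kb to the right of them. All 4 were among the 9 regions found in at least 2 libraries (44.4%, against 17.6% of all such regions), and 0 of 11 regions found in 1 library held a match (6.96% of all such regions). With 0 mismatches no region of the window had a match, against 1.64% of all regions, and with up to 2 mismatches 11 had one (46% of all regions). The count rose to 7 of 20 (35%) within 150 bp, against 13.8% of all regions at that width, and the promoter region entered there with the match at -147 bp, so the promoter's place in this count depends on the width searched.

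Against 22367 protein-coding genes, 4 regions found in all 6 libraries within 100 kb was a high number, reached by 3.31% of genes (median 0). The 2 hormone-only regions were not, as 22% of genes had at least as many. Mean peak numbers of 6.67 with vehicle and 9.33 with hormone were reached by 11 and 20.6% of genes, whose medians were 3 and 4.67. Genes differ in length and in the size of their windows, and neighbouring genes share regions.

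By the peak counts in the 6 libraries, the 5 genes most like Cyp24a1 were Cep72, Lrig2, Pde6d, Rrn3 and Slc37a3, each with a summed absolute difference of 3 peaks (median 27 over 22366 genes). Lrig2, for example, had 5, 5 and 10 peaks with vehicle and 9, 9 and 9 with hormone, and 3 regions found in all 6 libraries. Pde6d had 4, 5 and 11 with vehicle and 8, 10 and 9 with hormone, and 0 hormone-only regions. Cep72 and Rrn3 had 2 hormone-only regions each, as Cyp24a1 did, with 2 and 1 regions found in all 6 libraries. Slc37a3 had 3 of each class. None of the 5 thus had the same split into these classes as Cyp24a1.

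In 12 other genes of vitamin D metabolism, transport and receptor function, all 12 found in the annotation, 10 had at least 1 region found in all 6 libraries and 7 at least 1 hormone-only region, whereas 41.7 and 47.2% of all protein-coding genes did. None had as many regions found in all 6 libraries as Cyp24a1. Vdr, the receptor gene itself, came closest with 3, and had 5, 9 and 9 peaks with vehicle and 10, 10 and 12 with hormone. Rxra, which encodes a heterodimer partner of VDR, had 4, 8 and 7 peaks with vehicle and 12, 12 and 17 with hormone, with 3 hormone-only regions. Cyp27b1, which encodes the enzyme that makes 1,25(OH)2D3, had 4, 6 and 4 peaks with vehicle and 5, 8 and 9 with hormone. Cyp27a1, a sterol 27-hydroxylase gene, was the only 1 of the 12 with a hormone-only region within 10 kb of its start, at -0.6 kb. Rxrg, another retinoid X receptor gene, had 0 peaks in every library, and Cyp2r1, a vitamin D 25-hydroxylase gene, had 8 in vehicle replicate 3, 1 in hormone replicate 2 and 0 elsewhere.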

How the data were processed

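VDR ChIP-seq peak lists of 6 libraries (3 vehicle, 3 1,25(OH)2D3) were used, grouped by the treatment in the labels. Reads were aligned with Bowtie to mm9 and peaks called with HOMER, per the submitters' processing notes, with versions not given in the sources used here. Peak calling treated every library separately against 1 shared input, labelled with the hormone dose, per the file headers, at a false discovery rate of 0.001, at least 4-fold over the input and over the local 10 kb, and a Poisson p limit of 0.0001. The score deposited by the authors is 1 for every peak, so list order ranked the peaks, in place of the planned score. Tag counts per peak were not used here.

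Peaks were merged at 1 bp overlap and placed on GENCODE mouse version 1 (NCBI 37, mm9). DR3, a direct repeat with a 3 bp spacer, was searched in the mm9 genome on both strands within 100 bp of a region centre with at most 1 mismatch, and 12 shorter motifs likewise. A match is a description of letters only. Per-library values were compared by exact two-sided permutation. The computations, in Python 3.11.15 with NumPy 2.4.6 and pysam 0.24.0, were tested on simulated data.

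All regions of the window were described. The rule for other genes took the 5 most like Cyp24a1 in peak counts, without shared peaks, and a list of vitamin D genes. The window, members and lists were chosen with earlier results of these data known. Alternatives were other windows, shorter and equal-length lists, other overlaps, left-out libraries, a replicate block and other DR3 settings. Depth ranged from 15991198 to 68560701 tags per library, and the part of depth in the absence of peaks was not tested.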

Additional observations from a re-analysis of the deposited data

How the results depend on the processing

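Of 84 alternative values for 7 results, 76 kept their direction and stayed within the limits set for a change. These limits were wide, as a percentile difference of 1.05 against 10.1 was among the 76. The count therefore does not show that sizes were stable. The peak difference of 2.67 turned to -2 in the deep libraries alone and was 5 in the shallow libraries alone (alternatives chosen after seeing the data). With a library left out it ran from 1.33 to 4.83. The difference of -0.564 per 10000 peaks turned to 0.043 with the first 0.5 of each list and to 3.81 with lists of equal length, and ran from -1.21 to 0.513 with a library left out. The cause was not tested. The deep libraries alone gave 4 hormone-only regions in place of 2, by construction with fewer lists to agree, and leaving out a library gave 2 to 3. The DR3 count of 4 became 0 with no mismatch, 11 with at most 2 mismatches and 7 within 150 bp. The percentile difference of 10.1 was 1.05 with the first 0.5 of each list (3 regions in all 6 libraries, not 4) and 17.1 with lists of equal length, and ran from 6.04 to 13.5 with a library left out. In the deep libraries alone it was 1.37 over the 5 regions they share, while the 4 regions stood at 96.4 and 99.7. The shallow libraries alone gave a percentile difference of 13.6. The promoter shift ran from 36 to 47.5 bp with a library left out and was 26 bp in the deep and 51 bp in the shallow libraries.

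With the replicate number as a block (sign-flip test, smallest p 0.25), exact p was 0.5 for a difference of 2.67 peaks, 0.75 for -0.564 per 10000 peaks, 0.25 for 10.1 percentile points and 0.25 for the 42.7 bp shift. Deviations of same-numbered libraries correlated at -0.113, 0.001 and -0.184, so no shared deviation by number was seen, although replicate 3 is the deep library of both groups. What depth limits was not tested.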

Other observations

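Short motifs of other factors were searched within 100 bp of the centre of the 20 regions, on both strands, and a match describes letters, not binding. TTGCNNAA, a core recognised by C/EBP factors, occurred in 4 regions (20%, against 9.09% of all regions), the promoter region and those at 29.3, 35.3 and 63.9 kb, with 2 matches at 35.3 kb. CACGTG, an E-box, occurred in 2 regions (10%, against 3.16%), at 37.1 and 62.1 kb. The AP-1 core motif occurred in 2 regions (10%, against 10.9%), at 28.0 and 37.1 kb. AGATAA occurred in 3 regions (15%, against 18.4%), the promoter region and those at 45.9 and 59.2 kb. Among the regions named here, those at 28.0, 29.3, 59.2, 62.1 and 63.9 kb were each found in 1 library only. The region at 35.3 kb held GGGCGG, a core of Sp1 and KLF factors (5%, against 5.43%). Neither the ETS core CCGGAA (3.26% of all regions) nor the HNF4 motif CAAAGTCCA (1.56%) occurred in the 20 regions.

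Single hexamers of VDR type were also counted, and some overlap the DR3 matches. GGTTCA occurred in 3 regions (15%, against 13.5%), 3 times at 35.3 kb and at 1 place each in the promoter region and at 42.8 kb. GGGTCA occurred in 4 regions (20%, against 12%), at 27.0, 39.4, 42.8 and 69.4 kb, with 2 matches in the last. The regions at 39.4 and 42.8 kb are the copies described above, so they are not separate instances. AGGTCA occurred in 3 regions (15%, against 21.7%), at -33.3, 20.5 and 37.1 kb, with 2 matches in the last. AGTTCA occurred in 2 regions (10%, against 22.4%), at -33.3 and -11.1 kb. The regions at -33.3, 27.0 and 69.4 kb were each found in 1 library only.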
